A study of Rattus norvegicus with 15 samples.

Results

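The report concerns 108 autosomal protein-coding genes whose transcript level in the rat adrenal medulla differed at least 3-fold between normal tissue and hyperplasia and whose mean level was then nearly the same in the tumors. The genes were chosen by their measured levels in FPKM, the number of fragments per kilobase of gene length, scaled to the number of reads counted on genes. A gene was taken when its mean in hyperplasia was at least 3-fold higher or lower than in normal medulla, when each of the 5 hyperplasia samples lay outside the range of the 5 normal samples, when the ratio of the tumor mean to the hyperplasia mean lay between 0.8 and 1.25, and when the largest group mean was at least 1 FPKM. Of the 8621 genes in the deposited tables, 5026 autosomal protein-coding genes had values in all 15 samples, and 4682 of these reached 1 FPKM. The rule left 104 genes that were higher in hyperplasia and 4 that were lower. All comparisons between normal tissue, hyperplasia and tumor means are therefore descriptions of the chosen genes and not findings, and the calls and intervals printed below for these contrasts are no test of the choice.

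Chromaffin cells of the adrenal medulla derive from the neural crest and release catecholamines when nicotinic acetylcholine receptors are stimulated by the splanchnic nerve. They carry voltage-gated sodium, potassium and calcium channels and are relatives of sympathetic neurons, while glia-like sustentacular cells and Schwann cells of the nerve fibers lie among them. In MENX rats, which carry a frameshift mutation in *Cdkn1b*, the gene of the cell cycle inhibitor p27, medullary hyperplasia precedes pheochromocytoma.

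Poly(A) RNA of macrodissected medullae, from which the cortex had been taken off, was sequenced in rats of the strain given in the labels as Sprague-Dawely. The 5 wildtype rats with normal medulla (WT) were 7 to 9.5 months old, the 5 MENX rats with hyperplastic medulla (HYP) 4 to 5 months old, and the 5 MENX rats with pheochromocytoma (PCC) 7 to 9.5 months old. WT and HYP thus differed in age as well as in genotype, and the effects of both cannot be told apart. HYP and PCC differed in age as well as in stage, and these effects cannot be told apart either. By the study's methods the tumors included advanced pheochromocytomas, which the labels do not separate, so that the PCC group mixes both stages. Each sample came from a different animal, and between 16315018 and 23831269 reads had been assigned to genes in each.

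The tables list only genes that the authors had called in at least 1 pair of groups, so the background given here is a background of called genes. None of the 108 genes was listed for PCC vs. HYP, and all were listed in the tables of both groups against WT. By edgeR's quasi-likelihood test with a Benjamini-Hochberg adjusted *p* below 0.05, 103 of the chosen genes were higher and 4 lower in HYP than in WT among 107 tested, beside 39.5% higher and 32.5% lower of all genes tested. Against the tumors, 97 of 106 chosen genes were called higher and 4 lower in PCC than in WT, where the whole table gave 46.7% higher and 38.5% lower. The scaling of the counts bears on the background: with TMM the median log2 difference of all tested genes was -0.37 in HYP and 0.44 in PCC against WT, and with library totals -0.17 and 0.73. The calls over all genes in HYP were then 1809 higher and 576 lower, beside 1623 and 1337 with TMM, and all 106 chosen genes tested kept a call. Since the rule used these contrasts, nothing is read from these calls.

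The labels call the samples chromaffin cells, but transcripts of the adrenal cortex were present in every group. The 8 cortex markers with values in all samples (of 15 listed, among them *Cyp21a1* and *Star*, which act in steroid synthesis) summed to 20098 to 36432 FPKM in WT, 9976 to 23451 FPKM in HYP and 718 to 11638 FPKM in PCC. The 13 chromaffin markers (of 17, among them *Th* and *Dbh* of catecholamine synthesis) summed to 777 to 4949, 5671 to 8539 and 10761 to 17932 FPKM. Only markers that the authors had called in at least 2 pairs of groups have values in all samples. All marker levels given here therefore favor markers that differ between groups. The chromaffin markers *Pnmt*, *Chga*, *Chgb* and *Gata3* are left out for this reason. WT replicate 5 had the lowest chromaffin level, 0.178 times the WT mean as the median over the markers, against 0.829 to 1.58 times in the other WT samples. In bulk tissue, fewer cells of a type and less RNA per cell cannot be told apart, and the part that the changing mixture of cells has in the values of the chosen genes was not tested.

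**Figure D1:**
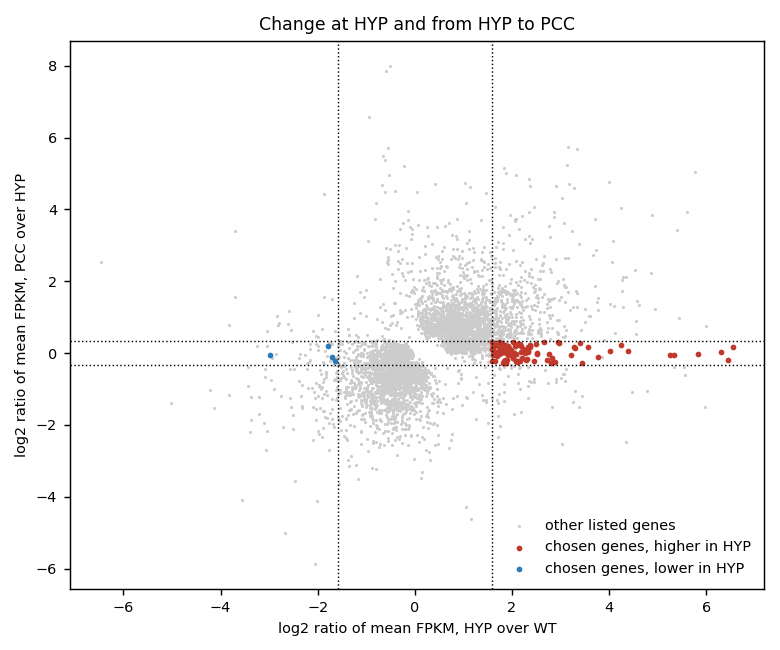
Log2 ratio of mean FPKM in HYP over WT (x axis) against PCC over HYP (y axis) for the listed autosomal protein-coding genes that reached 1 FPKM in a group; dotted lines mark the 3-fold limits and the ratios 0.8 and 1.25. The 104 higher genes (red) and 4 lower genes (blue) fill the windows that the rule set, and grey points inside the windows had HYP samples within the WT range.

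Among the 551 genes that were at least 3-fold higher in HYP with separated samples, 104 fell into the window, 397 lay above it because PCC was higher still, and 50 lay below it. Of the 34 genes that were lower in the same way, 4 fell into the window, 24 lay below it and 6 above it. The higher genes had a median of 4.21-fold over WT in HYP and 4.17-fold in PCC. Leaving aside 3 genes with at most 3 counts in each WT sample, for which only a lower bound can be given, the range was 3.01-fold to 86.5-fold in HYP and 2.59-fold to 81.1-fold in PCC. *Fam69c* was 1 of these 3, at least 12.1-fold higher in HYP and at least 13.7-fold in PCC with 3 counts per library as the floor, and the bounds of all 3 lay above the median. In 58 of the 104 genes the HYP mean was at least 4-fold the WT mean. The PCC mean exceeded the HYP mean in 62 of the 104 genes.

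Genes lay close to each limit on both sides. *Stac*, an adaptor of voltage-gated calcium channels, lay just inside the upper end of the window with a PCC to HYP ratio of 1.24, and *Syt12* just outside with 1.26. At the lower end *Ly6g6e* was inside with a ratio of 0.819 and *Erbb3* outside with 0.796. *Chrna5* passed the 3-fold limit with 3.01-fold and *Phactr1* missed it with 2.97-fold. Among the lower genes, *Midn* passed with 3.12-fold and *Adgrv1* missed it with 2.60-fold.

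The start regions of 8 genes are shown first for their position or fold. Of these, 6 form pairs of chosen genes that lie near each other, and 1 starts beside another chosen gene. The last had the highest HYP to WT fold among genes with more than 3 counts in a WT sample. Genes that were not chosen may lie between the genes of a pair. *Chrna5* and *Chrnb4* lay 19.5 kb apart on chromosome 8, *S100a4* and *S100a6* 7.61 kb apart on chromosome 2, and *Krt25* and *Krt26* 5999 bases apart on chromosome 10 (rat build Rn06, from the files). *Col4a4* on the minus strand and LOC100911572 on the plus strand, which the files describe as collagen alpha-3(IV) chain-like, were separated by 373 bases on chromosome 9. The sequences are from RefSeq (build GRCr8), run from 250 bases before to 50 after the start, 5′ to 3′ on the strand of the gene, and capitals mark the motifs named below.
Chrna5 (chr8:64265629-64265928, plus strand): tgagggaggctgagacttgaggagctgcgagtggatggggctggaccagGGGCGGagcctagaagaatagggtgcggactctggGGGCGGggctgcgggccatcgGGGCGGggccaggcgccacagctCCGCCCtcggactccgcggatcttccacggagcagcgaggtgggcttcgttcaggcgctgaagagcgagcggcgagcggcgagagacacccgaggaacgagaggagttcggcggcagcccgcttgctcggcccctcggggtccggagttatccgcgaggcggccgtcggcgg
Chrnb4 (chr8:64333060-64333359, minus strand): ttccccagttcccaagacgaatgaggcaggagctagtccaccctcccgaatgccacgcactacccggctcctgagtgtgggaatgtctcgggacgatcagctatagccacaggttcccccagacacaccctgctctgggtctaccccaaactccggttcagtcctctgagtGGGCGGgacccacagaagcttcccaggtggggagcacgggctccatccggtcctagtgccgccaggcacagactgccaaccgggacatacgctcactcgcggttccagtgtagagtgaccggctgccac
S100a4 (chr2:178388279-178388578, plus strand): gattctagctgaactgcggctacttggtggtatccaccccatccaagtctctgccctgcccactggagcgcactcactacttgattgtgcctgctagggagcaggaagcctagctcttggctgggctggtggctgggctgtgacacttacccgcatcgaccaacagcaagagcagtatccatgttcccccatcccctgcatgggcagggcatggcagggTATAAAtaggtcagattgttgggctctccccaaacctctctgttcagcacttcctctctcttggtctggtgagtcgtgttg
S100a6 (chr2:178398287-178398586, plus strand): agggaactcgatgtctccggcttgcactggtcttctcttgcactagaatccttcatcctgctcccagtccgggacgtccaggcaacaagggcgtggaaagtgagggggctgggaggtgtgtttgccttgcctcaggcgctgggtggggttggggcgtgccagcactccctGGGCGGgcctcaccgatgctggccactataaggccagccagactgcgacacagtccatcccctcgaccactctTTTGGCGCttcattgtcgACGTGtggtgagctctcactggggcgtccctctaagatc
Krt25 (chr10:84771148-84771447, minus strand): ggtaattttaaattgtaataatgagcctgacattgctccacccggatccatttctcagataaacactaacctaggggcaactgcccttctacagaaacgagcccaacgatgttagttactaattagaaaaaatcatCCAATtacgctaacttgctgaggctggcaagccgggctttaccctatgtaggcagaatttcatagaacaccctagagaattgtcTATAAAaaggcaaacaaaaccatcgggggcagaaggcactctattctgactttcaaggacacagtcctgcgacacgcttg
Krt26 (chr10:84786952-84787251, minus strand): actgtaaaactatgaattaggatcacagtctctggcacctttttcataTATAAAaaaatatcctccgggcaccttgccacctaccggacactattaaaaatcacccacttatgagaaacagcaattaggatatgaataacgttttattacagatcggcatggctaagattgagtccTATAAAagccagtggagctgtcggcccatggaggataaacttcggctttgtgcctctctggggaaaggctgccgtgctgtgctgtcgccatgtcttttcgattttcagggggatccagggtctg
B3gat1 (chr8:33363055-33363354, plus strand): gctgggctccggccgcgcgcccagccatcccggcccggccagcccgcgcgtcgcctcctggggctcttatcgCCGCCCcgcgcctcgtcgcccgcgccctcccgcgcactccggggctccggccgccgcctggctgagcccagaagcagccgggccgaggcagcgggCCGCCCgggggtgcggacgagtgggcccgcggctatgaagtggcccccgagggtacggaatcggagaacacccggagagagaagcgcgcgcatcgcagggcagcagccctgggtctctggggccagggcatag
Col4a4 (chr9:91323528-91323827, minus strand): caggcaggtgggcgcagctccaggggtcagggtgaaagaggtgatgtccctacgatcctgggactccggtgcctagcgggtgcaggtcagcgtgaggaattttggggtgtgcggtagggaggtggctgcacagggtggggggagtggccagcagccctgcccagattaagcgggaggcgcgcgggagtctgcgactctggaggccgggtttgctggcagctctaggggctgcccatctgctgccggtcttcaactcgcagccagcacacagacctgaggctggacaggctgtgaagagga

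Capitals mark the GC box GGGCGG, the TATA box TATAAA, the CCAAT box CCAAT, the E2F forms TTTCGCGC and TTTGGCGC, the hypoxia response element core ACGTG, the E-box CACGTG that contains this core, the cAMP response element TGACGTCA, the AP-1 site TGANTCA and the SF-1 site CAAGGTCA, each searched on both strands. Of the 108 genes, 69 matched the table by symbol, with 82 start regions. A GC box was in 47 of these 82 (57.3%), beside 33.1% of all 33469 start regions and 59.8% of those of the listed genes. In the following the share of all start regions comes first and that of the listed genes second. The ACGTG core was in 14 (17.1%, beside 19.3% and 22.9%) and CACGTG in 4 (4.88%, beside 6.42% and 8.12%). AP-1 letters were in 9 (11.0%, beside 7.33% and 5.67%) and a CCAAT box in 20 (24.4%, beside 37.5% in both). A TATA box was in 9 (11.0%), fewer than the 14.2% of all regions and more than the 7.82% of the listed genes. The cAMP response element was in 1 region (1.22%, beside 1.83% and 3.26%), the E2F forms in 0 (beside 0.326% and 0.625%) and 1 (1.22%, beside 0.493% and 0.926%), and the SF-1 letters in 0 (beside 1.52% and 1.16%). In the regions printed, the TATA boxes of *S100a4* and *Krt25* began 31 and 30 bases before the start, *Chrna5* had 4 GC boxes and *Chrnb4* had 1, and *Col4a4* held none of the motifs. These matches are descriptions of letters and not binding sites.

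**Figure D2:**
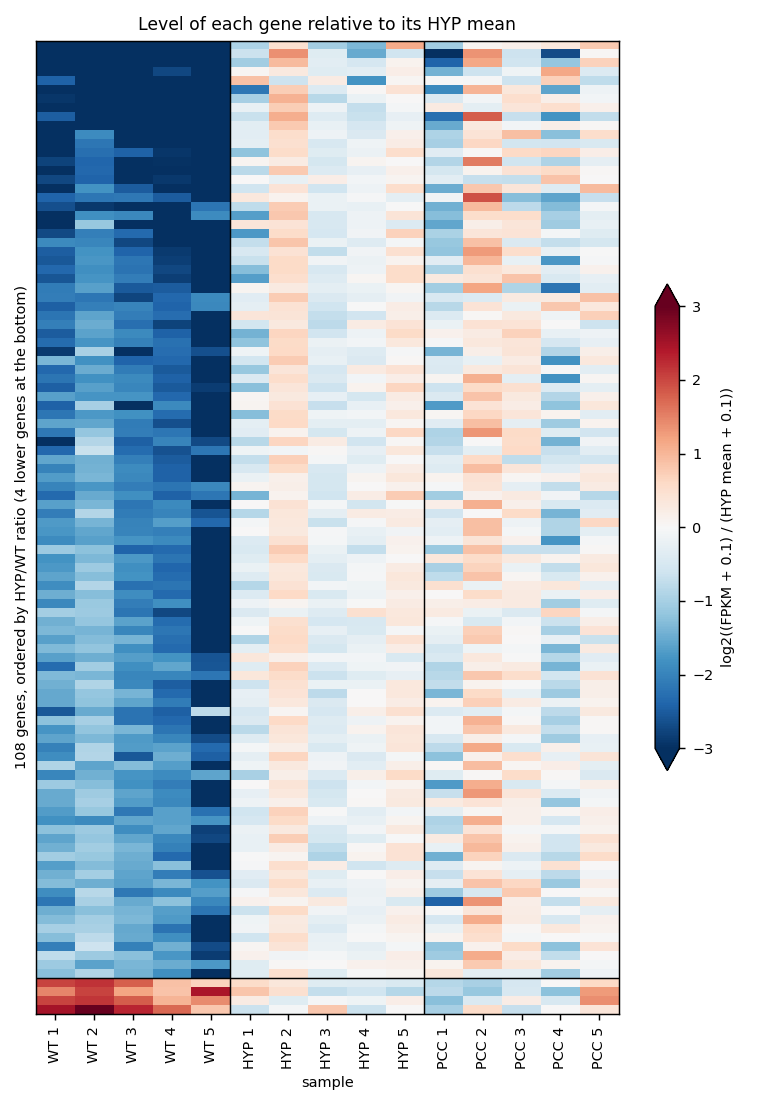
Level of each of the 108 genes (rows, ordered by the HYP to WT ratio, with the 4 lower genes at the bottom) in each of the 15 samples (columns), as log2 of FPKM + 0.1 over the HYP mean + 0.1. WT replicate 5 is the bluest column of the higher genes, and HYP replicate 2 and PCC replicate 2 are the reddest of their groups.

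By their symbols 10 of the 108 genes (9.26%) fell into the channel class, beside 1.87% of the 5026 listed genes, although *Tmem169*, counted there by its symbol, is not known as a channel. Receptors made up 7 (6.48%, beside 3.34%) and adhesion and guidance genes 6 (5.56%, beside 2.05%), while none of the 67 listed genes of the synaptic vesicle class and none of the 124 cell cycle genes was chosen. These shares were not tested. In the groups by known role used below, which were formed after the values had been seen, 64 genes were placed and 44 were not.

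Of the 10 channel genes and partners in the role group, 9 had a higher mean in PCC than in HYP, with ratios of 0.946 to 1.22. *Kcnb2*, a voltage-gated potassium channel of the delayed rectifier type, had 0.309, 0.159, 0.117, 0.0522 and 0.0730 FPKM in WT replicates 1 to 5, 1.45, 6.22, 1.62, 2.58 and 2.97 FPKM in HYP and 2.17, 2.80, 4.26, 3.36 and 2.78 FPKM in PCC. The means were 0.142 ± 0.102, 2.97 ± 1.93 and 3.07 ± 0.786 FPKM (SD, n = 5), which gives 20.9-fold in HYP and 21.6-fold in PCC. All HYP and PCC samples were above all WT samples, and the 5 PCC samples lay inside the HYP range. *Kcnj12*, an inward rectifier potassium channel, had 0.560 ± 0.401 FPKM in WT, 4.38 ± 1.66 FPKM in HYP and 5.36 ± 2.97 FPKM in PCC. *Kcnq3*, a subunit of the M-current channel, had 1.58 ± 0.741 FPKM, 7.94 ± 4.15 FPKM and 8.98 ± 2.46 FPKM in the same order. *Kcnc4*, a fast delayed rectifier channel, had the highest mean of the potassium channel subunits that form a pore in this group. It had 10.2, 13.6, 10.7, 6.77 and 1.63 FPKM in WT replicates 1 to 5, 24.0, 33.4, 16.4, 28.5 and 37.6 FPKM in HYP and 23.8, 55.3, 31.1, 18.8 and 34.2 FPKM in PCC. With means of 8.59 ± 4.58, 28.0 ± 8.23 and 32.6 ± 14.0 FPKM (SD, n = 5), *Kcnc4* was 3.26-fold higher in HYP and 3.80-fold higher in PCC. WT replicate 5 was far below the other WT samples, and PCC replicate 2 was the highest of all. *Dpp6*, an auxiliary subunit of A-type potassium channels, had 16.4 ± 8.26 FPKM in WT, 58.2 ± 12.8 FPKM in HYP and 68.2 ± 16.8 FPKM in PCC.

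The pore-forming subunit of N-type calcium channels, *Cacna1b*, which couples depolarization to transmitter release, is known from neurons and chromaffin cells. It had 2.84, 3.95, 2.74, 2.17 and 0.584 FPKM in WT replicates 1 to 5, 6.96, 10.5, 5.76, 8.34 and 10.1 FPKM in HYP and 5.14, 20.6, 10.8, 6.27 and 7.74 FPKM in PCC. The means were 2.46 ± 1.23, 8.33 ± 2.01 and 10.1 ± 6.26 FPKM (SD, n = 5), which gives 3.39-fold in HYP and 4.12-fold in PCC. The groups WT and PCC did not overlap, but PCC replicate 2 with 20.6 FPKM was above every HYP sample. *Cacnb4*, an auxiliary calcium channel subunit, had a HYP to WT fold of 4.22 and a PCC to WT fold of 4.93. In *Scn3a*, a sodium channel alpha subunit, and *Asic4*, a member of the acid-sensing channel family, 1 of the 5 PCC samples fell back into the WT range. For *Scn3a* it was PCC replicate 4 with 2.77 FPKM below the highest WT sample with 3.13 FPKM. *Asic4* had 9.79 FPKM in PCC replicate 1 and 13.1 FPKM in the highest WT sample. *Lrrc8c*, a subunit of volume-regulated anion channels, had 2.87 ± 0.938 FPKM, 9.62 ± 3.50 FPKM and 9.91 ± 1.25 FPKM in WT, HYP and PCC.

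The 2 nicotinic receptor subunit genes *Chrna5* and *Chrnb4*, which lay 19.5 kb apart, were both just above the 3-fold limit. *Chrnb4*, which encodes a beta subunit of the ganglionic type receptor, had 21.7, 29.4, 19.8, 14.0 and 9.67 FPKM in WT replicates 1 to 5, 46.8, 75, 46.1, 59.8 and 68.4 FPKM in HYP and 36.6, 79.3, 49.4, 34.5 and 55.0 FPKM in PCC. With means of 18.9 ± 7.54, 59.2 ± 12.9 and 51.0 ± 18.0 FPKM (SD, n = 5), *Chrnb4* was 3.13-fold higher in HYP and 2.69-fold higher in PCC. All HYP and PCC samples were above the highest WT sample. *Chrna5*, an accessory alpha subunit, had 2.76, 3.54, 2.44, 1.80 and 0.661 FPKM in WT replicates 1 to 5, 5.20, 9.47, 5.20, 6.65 and 7.15 FPKM in HYP and 8.59, 5.53, 5.61, 3.23 and 6.06 FPKM in PCC. The means were 2.24 ± 1.08, 6.73 ± 1.76 and 5.80 ± 1.91 FPKM (SD, n = 5), which gives 3.01-fold in HYP and 2.59-fold in PCC. Here PCC replicate 4 fell below the highest WT sample, so that the groups WT and PCC overlapped. *Chrnb4* lay on chromosome 8 from 59609659 to 59629329 and *Chrna5* from 59561817 to 59590172 (Rn06).

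The muscarinic receptor *Chrm4*, which couples to inhibitory G proteins, was higher than in WT in each HYP and PCC sample. It had 1.06, 1.66, 1.16, 0.984 and 0.191 FPKM in WT replicates 1 to 5, 6.71, 6.83, 3.14, 3.46 and 5.90 FPKM in HYP and 3.90, 5.32, 6.41, 4.75 and 8.64 FPKM in PCC. With means of 1.01 ± 0.529, 5.21 ± 1.78 and 5.80 ± 1.83 FPKM (SD, n = 5), *Chrm4* was 5.15-fold higher in HYP and 5.75-fold higher in PCC. *Gfra2*, the co-receptor for neurturin, had 4.17 ± 2.24 FPKM in WT, 15.2 ± 4.61 FPKM in HYP and 12.6 ± 4.76 FPKM in PCC. PCC replicate 4 lay within the WT range.

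The plasma membrane calcium pumps *Atp2b2* and *Atp2b4*, which export calcium from the cell, were both chosen. *Atp2b2* had 2.29 ± 1.13 FPKM in WT, 7.02 ± 1.29 FPKM in HYP and 8.25 ± 4.20 FPKM in PCC. *Atp2b4* had 7.49 ± 2.36 FPKM, 26.1 ± 6.52 FPKM and 21.5 ± 6.53 FPKM, the lower PCC to HYP ratio of the pair (0.824 against 1.17). In both, each PCC sample exceeded every WT sample. *Slc24a4*, a sodium, potassium and calcium exchanger, was 3.54-fold higher in HYP and 3.05-fold in PCC.

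**Figure D3:**
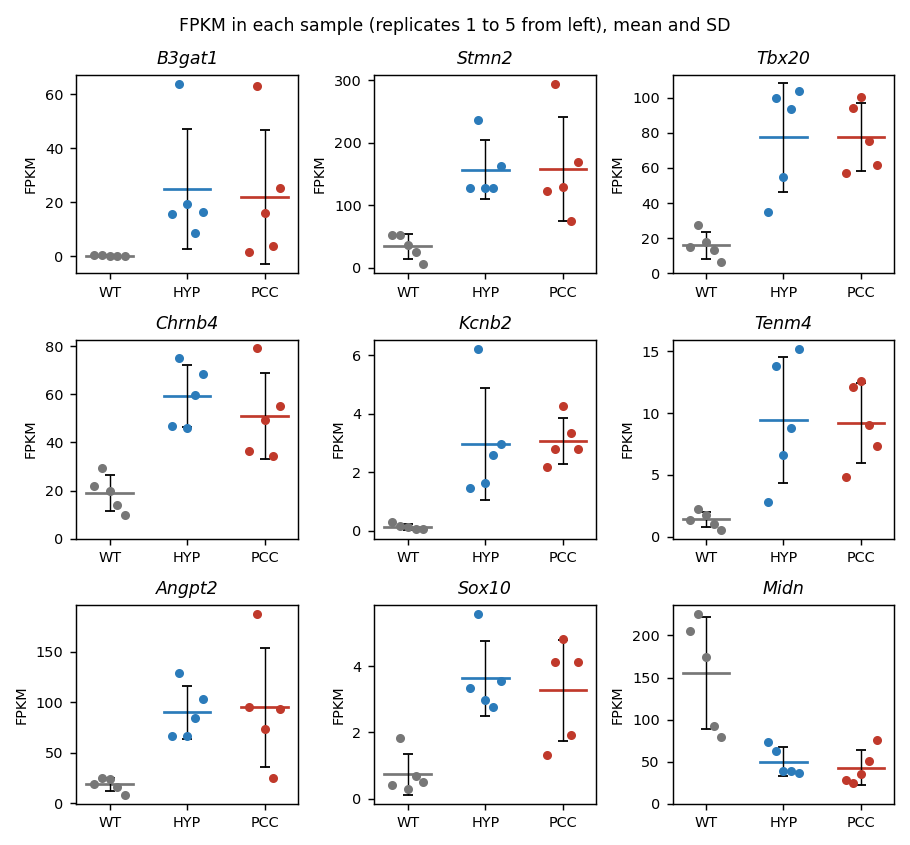
FPKM of 9 chosen genes in each sample (points, replicates 1 to 5 from left), with the group mean (horizontal line) and SD (bars, n = 5); all y axes are linear and include 0. *Sox10* shows 1 PCC sample within the WT range, *B3gat1* has 1 very high sample in HYP and in PCC, and *Midn* is lower in each HYP and PCC sample than in each WT sample.

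Transcription factors and RNA-binding proteins formed a group of 12 genes, of which 10 had each PCC sample above each WT sample. *Tbx20*, a T-box factor known from heart and motor neuron development, had the highest level among them. It had 15.1, 27.3, 18.0, 13.5 and 6.19 FPKM in WT replicates 1 to 5, 34.8, 99.7, 54.8, 93.3 and 104 FPKM in HYP and 57, 94.1, 100.3, 75.3 and 61.7 FPKM in PCC. The means were 16.0 ± 7.67, 77.3 ± 30.7 and 77.7 ± 19.2 FPKM (SD, n = 5), which gives 4.83-fold in HYP and 4.85-fold in PCC. All 5 PCC samples lay inside the HYP range, and its PCC to HYP ratio was 1.00. *Eya1*, a coactivator of homeodomain factors with phosphatase activity, had 4.86 ± 2.49 FPKM in WT, 27.8 ± 8.69 FPKM in HYP and 27.3 ± 17.4 FPKM in PCC. *Tox*, an HMG-box protein known from T cell development, was 6.54-fold higher in HYP and 5.67-fold in PCC. *Elavl3*, a neuronal RNA-binding protein, was 6.34-fold higher in HYP and 7.83-fold in PCC, and *St18*, a zinc finger factor, 3.83-fold and 4.25-fold. The LIM homeobox gene *Lhx4* had its PCC samples outside the HYP range throughout, with 34.6 FPKM in PCC replicate 2 and 3.27 to 12.2 FPKM in the other 4, against 12.4 to 18.4 FPKM in HYP.

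*Sox10*, the neural crest and Schwann cell factor, differed in its sample pattern. It had 0.409, 1.82, 0.284, 0.671 and 0.504 FPKM in WT replicates 1 to 5, 3.34, 5.58, 2.97, 2.75 and 3.54 FPKM in HYP and 1.32, 4.13, 4.82, 1.94 and 4.12 FPKM in PCC. With means of 0.737 ± 0.621, 3.64 ± 1.13 and 3.27 ± 1.54 FPKM (SD, n = 5), *Sox10* was 4.93-fold higher in HYP and 4.43-fold higher in PCC. WT replicate 2 stood above the other WT samples and above PCC replicate 1. Without it the log2 ratio to WT went from 2.30 to 2.96 in HYP and from 2.15 to 2.81 in PCC. *Cdh19*, a cadherin of Schwann cell precursors, had 1.54 FPKM in WT replicate 2 and 0.261 to 0.656 FPKM in the other WT samples, 2.90 ± 1.21 FPKM in HYP and 2.49 ± 1.28 FPKM in PCC, and without WT replicate 2 its log2 ratios went from 2.15 to 2.75 and from 1.93 to 2.53. *Gldn* (gliomedin, which organizes nodes of Ranvier), *Cmtm5* and *Ttyh1*, known from myelinating or glial cells, also had their highest WT value in replicate 2. In none of these 5 genes were all 5 PCC samples above every WT sample, and the PCC to HYP ratios of all 5 were below 1, from 0.821 to 0.90. The 9 sustentacular and Schwann markers with values (of 12, with *Sox10* and *Cdh19* among them) had a median level of 2.20 times the WT mean in WT replicate 2, 0.552 to 0.848 times in the other WT samples, 1.96 to 4.08 times in HYP and 1.85 to 5.11 times in PCC. *S100b* went the other way, with a mean of 40.0 FPKM in WT, 21.1 FPKM in HYP and 5.19 FPKM in PCC.

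Among genes of adhesion and axon guidance, *Ptprt*, a receptor-type tyrosine phosphatase that mediates cell contact, had the largest HYP to WT fold. It had 0.10, 0.129, 0.0266, 0.0889 and 0.0691 FPKM in WT replicates 1 to 5, 0.625, 5.29, 2.37, 3.21 and 4.27 FPKM in HYP and 0.772, 6.51, 4.01, 0.989 and 2.83 FPKM in PCC. The means were 0.0828 ± 0.0382, 3.15 ± 1.79 and 3.02 ± 2.37 FPKM (SD, n = 5), which gives 38.1-fold in HYP and 36.5-fold in PCC. All HYP and PCC samples were above WT, where each value was close to 0. *Tenm4*, a teneurin with roles in axon guidance and myelination, was measured at a higher level. It had 1.37, 2.21, 1.78, 1.03 and 0.579 FPKM in WT replicates 1 to 5, 2.81, 13.8, 6.59, 8.82 and 15.2 FPKM in HYP and 4.85, 12.1, 12.6, 9.07 and 7.33 FPKM in PCC. With means of 1.39 ± 0.634, 9.44 ± 5.12 and 9.19 ± 3.26 FPKM (SD, n = 5), *Tenm4* was 6.78-fold higher in HYP and 6.60-fold higher in PCC. Each PCC sample lay inside the HYP range, but that range was wide, since HYP replicate 1 was close to the highest WT sample. *Slit3*, a secreted repellent of axons, had 6.06 ± 2.69 FPKM in WT, 26.1 ± 8.77 FPKM in HYP and 30.9 ± 12.2 FPKM in PCC. *Flrt3*, an adhesion protein with fibronectin and leucine-rich repeats, was 4.86-fold higher in HYP and 4.21-fold in PCC, with 1 PCC sample inside the WT range.

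Matrix genes were represented by 4 members. *Smoc2*, a matricellular protein related to SPARC, had 0.0411 ± 0.0354 FPKM in WT, 3.23 ± 1.86 FPKM in HYP and 3.33 ± 2.87 FPKM in PCC, with 1 WT sample at 0. *Tnr*, an extracellular glycoprotein of perineuronal nets, had 7.92 ± 3.95 FPKM, 44.3 ± 21.2 FPKM and 52.5 ± 19.1 FPKM. *Col4a4*, a chain of basement membrane collagen, had 15.0, 14.4, 9.80, 8.38 and 3.90 FPKM in WT replicates 1 to 5, 37.7, 55.7, 32.2, 27.7 and 37.0 FPKM in HYP and 33.0, 62.7, 38.9, 19.0 and 50.9 FPKM in PCC. The means were 10.3 ± 4.56, 38.1 ± 10.7 and 40.9 ± 16.7 FPKM (SD, n = 5), which gives 3.70-fold in HYP and 3.98-fold in PCC. Its head-to-head neighbor LOC100911572, named because of its position, had 0.681 ± 0.209 FPKM, 2.47 ± 0.910 FPKM and 2.88 ± 1.32 FPKM, so that both genes were higher in each HYP and PCC sample than in WT. *Col3a1*, a fibrillar collagen made by fibroblasts, had 3.73 ± 1.56 FPKM in WT, 11.6 ± 2.32 FPKM in HYP and 11.5 ± 5.47 FPKM in PCC. PCC replicate 1 with 5.49 FPKM lay below WT replicate 2 with 6.45 FPKM. The 5 pericyte and fibroblast markers with values (of 11, *Col3a1* included) were at 0.764 to 1.38 times the WT mean in WT, 2.20 to 2.99 times in HYP and 1.47 to 5.36 times in PCC, as the median over unlike markers. The mean of *Rgs5* was 32.5 FPKM in WT, 138 FPKM in HYP and 1823 FPKM in PCC, and that of *Pdgfra* 0.922, 1.67 and 0.723 FPKM.

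Secreted factors included *Angpt2*, which destabilizes vessels as an antagonist of the TIE2 receptor. It had 19.6, 25.3, 24.0, 16.7 and 8.62 FPKM in WT replicates 1 to 5, 66.6, 129, 66.4, 84.3 and 103 FPKM in HYP and 94.9, 187, 73.8, 25.4 and 93.3 FPKM in PCC. With means of 18.8 ± 6.67, 89.8 ± 26.5 and 94.9 ± 58.7 FPKM (SD, n = 5), *Angpt2* was 4.77-fold higher in HYP and 5.04-fold higher in PCC. Each HYP and PCC sample exceeded the highest WT sample, although PCC replicate 4 with 25.4 FPKM was next to WT replicate 2 with 25.3 FPKM. The PCC samples of *Angpt2* ranged 7.35-fold, from 25.4 to 187 FPKM, beside 1.94-fold in HYP. The 7 endothelial markers with values (of 12, *Angpt2* not included) were at 0.759 to 1.16 times the WT mean in WT, 0.593 to 0.795 times in HYP and 0.294 to 0.898 times in PCC as the median over the markers. *Vwf* went the other way, with means of 1.60, 2.52 and 5.35 FPKM. The part of these cells in the level of *Angpt2* was not tested. *Inhbb*, the beta-B subunit of activin and inhibin, had 2.28 ± 0.903 FPKM, 7.29 ± 2.25 FPKM and 7.46 ± 1.66 FPKM in WT, HYP and PCC, and *Rbp4*, the plasma carrier of retinol, 1.41 ± 0.742 FPKM, 26.8 ± 10.6 FPKM and 31.4 ± 6.11 FPKM.

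The highest level of all 108 genes in HYP and PCC was that of *Stmn2*, a microtubule-destabilizing protein of growing axons. It had 52.4, 53.0, 36.5, 25.2 and 5.59 FPKM in WT replicates 1 to 5, 127, 236, 128, 128 and 163 FPKM in HYP and 122.7, 295, 129, 74.8 and 169.5 FPKM in PCC. The means were 34.5 ± 19.9, 156 ± 47.2 and 158 ± 83.4 FPKM (SD, n = 5), which gives 4.53-fold in HYP and 4.58-fold in PCC. The lowest PCC sample was above the highest WT sample. The 6 autonomic neuron markers with values (of 9, *Stmn2* and *Elavl3* among them) were at 0.188 to 1.59 times the WT mean in WT, 3.65 to 6.61 times in HYP and 3.47 to 12.03 times in PCC, as the median over the markers. *Nefh* went the other way, with means of 12.8, 7.20 and 5.47 FPKM in WT, HYP and PCC. *Tmod2*, the neuronal tropomodulin that caps actin filaments, had 3.88 ± 1.59 FPKM, 19.3 ± 7.82 FPKM and 19.6 ± 4.90 FPKM, and *Ank3*, the ankyrin of the axon initial segment, 6.49 ± 2.47 FPKM, 26.5 ± 6.57 FPKM and 24.2 ± 10.02 FPKM. *Krt26*, a type I keratin of the hair root sheath, had 0.206 ± 0.0923 FPKM in WT, 1.58 ± 0.292 FPKM in HYP and 1.94 ± 2.43 FPKM in PCC. Its PCC mean rested on PCC replicate 2 with 6.24 FPKM, without which the log2 ratio of PCC to WT fell from 3.24 to 2.07. The neighbor *Krt25* had at most 2 counts in any WT sample, and with 3 counts per library as the floor it was at least 14.3-fold higher in HYP and at least 14.2-fold higher in PCC. Both keratins had at most 2.01 FPKM in any HYP sample.

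The enzymes that build cell surface glycans held *B3gat1*, which makes the HNK-1 epitope of neural crest cells and lies on chromosome 8 from 27777179 to 27804515. It had 0.426, 0.481, 0.283, 0.173 and 0.0735 FPKM in WT replicates 1 to 5, 15.8, 64.0, 19.4, 8.61 and 16.4 FPKM in HYP and 1.55, 62.9, 16.1, 3.81 and 25.3 FPKM in PCC. With means of 0.287 ± 0.170, 24.8 ± 22.3 and 21.9 ± 24.9 FPKM (SD, n = 5), *B3gat1* was 86.5-fold higher in HYP and 76.3-fold higher in PCC. HYP replicate 2 and PCC replicate 2 were far above the rest, and without HYP replicate 2 the log2 ratio of HYP to WT fell from 6.43 to 5.71. Without PCC replicate 2 the log2 ratio of PCC to WT fell from 6.25 to 5.34. *St8sia1*, the synthase of ganglioside GD3, had 4.47 ± 2.97 FPKM, 16.1 ± 4.81 FPKM and 14.1 ± 4.38 FPKM, and *Hs3st5*, a heparan sulfate sulfotransferase, 0.560 ± 0.378 FPKM, 2.28 ± 1.03 FPKM and 2.07 ± 1.32 FPKM. All 3 had PCC to HYP ratios below 1.

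*S100a4* and *S100a6*, genes of calcium-binding proteins that lay 7.61 kb apart, were both higher in HYP. *S100a4* had 8.54, 15.2, 7.75, 9.16 and 2.66 FPKM in WT replicates 1 to 5, 29.5, 34.7, 28.6, 32.5 and 38.8 FPKM in HYP and 37.0, 38.6, 39.5, 16.0 and 25.5 FPKM in PCC. The means were 8.67 ± 4.47, 32.8 ± 4.11 and 31.3 ± 10.3 FPKM (SD, n = 5), which gives 3.79-fold in HYP and 3.61-fold in PCC. *S100a6* had 43.1, 50.9, 22.0, 19.96 and 8.92 FPKM in WT replicates 1 to 5, 75.8, 155, 77.3, 91.0 and 110.1 FPKM in HYP and 95.8, 209, 104, 50.7 and 105 FPKM in PCC. With means of 29.0 ± 17.4, 102 ± 32.7 and 113 ± 58.1 FPKM (SD, n = 5), *S100a6* was 3.51-fold higher in HYP and 3.89-fold higher in PCC. For *S100a6*, PCC replicate 4 with 50.7 FPKM lay just below WT replicate 2 with 50.9 FPKM, whereas all PCC samples of *S100a4* were above WT. These genes are short and related, and how reads that match several S100 genes were counted is not given in the sources used here.

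The 4 remaining genes were lower in HYP by the rule. *Midn*, midnolin, a protein that brings nuclear proteins to the proteasome, had 205, 226, 175, 92.5 and 79.3 FPKM in WT replicates 1 to 5, 73.4, 62.9, 38.7, 38.4 and 36.1 FPKM in HYP and 27.7, 25.2, 35.3, 50.3 and 75.3 FPKM in PCC. Means were 156 ± 66.3, 49.9 ± 17.1 and 42.7 ± 20.7 FPKM (SD, n = 5). It was 3.12-fold lower in HYP and 3.64-fold lower in PCC, and each HYP and PCC sample lay below each WT sample. *Phlda1*, a pleckstrin homology-like protein that is induced by growth factors, had 73.7, 109, 60.4, 47.9 and 146 FPKM in WT replicates 1 to 5, 47.4, 37.4, 16.2, 17.5 and 14.8 FPKM in HYP and 15.5, 12.1, 19.2, 11.3 and 64.3 FPKM in PCC. Means were 87.4 ± 39.9, 26.7 ± 14.8 and 24.5 ± 22.5 FPKM (SD, n = 5). PCC replicate 5 lay within the WT range, and without it the log2 ratio of PCC to WT went from -1.84 to -2.59. *Lurap1l* had 8.31 ± 2.49 FPKM, 2.42 ± 0.422 FPKM and 2.74 ± 2.19 FPKM, and 1 PCC sample, again replicate 5 with 6.48 FPKM, lay within the WT range. Without it the log2 ratio went from -1.60 to -2.20. All PCC samples were below WT in 2 of the 4, beside 21.3% of the listed genes.

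The rule fixed the PCC mean, which largely sets where the single PCC samples lie, so the following counts are descriptions. Of the 104 higher genes, 81 (77.9%) had all 5 PCC samples above every WT sample, beside 45.4% of the 5026 listed genes. In 19 genes (18.3%, beside 5.15% of the listed genes) 4 and in 4 genes (3.85%, beside 1.21%) 3 of the PCC samples were above WT. In 19 genes (18.3%, beside 4.66%) all 5 PCC samples lay inside the HYP range. In 3 genes (2.9%, beside 30.8%) none did, *Lhx4* and *Gldn* among them. The coefficient of variation of the higher genes had a median of 51.5% in WT, 30.6% in HYP and 42.6% in PCC. For the listed genes with at least 1 FPKM in HYP and PCC the medians were lower, with 26.3%, 21.15% and 29.5%. The coefficient was larger in PCC than in HYP in 72 of 104 higher genes (69.2%, beside 72.5% of those listed genes).

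How well the data hold the means level was measured by the 95% interval of the PCC to HYP ratio, fitted with limma's voom on the counts scaled by TMM. This scaling assumes that most genes do not differ. The fitted genes were those that the authors had called in at least 2 pairs of groups, so the assumption need not hold for them. All 108 intervals contained a ratio of 1, none lay within 0.8 to 1.25, and 42 reached a 2-fold difference in 1 of the directions. For *Tbx20* the interval was 0.650 to 1.52, for *Stmn2* 0.442 to 1.75, for *Rbp4* 0.771 to 1.67 and for *B3gat1* 0.179 to 1.52. With 5 samples per group, the level in PCC was thus not shown to be the same as in HYP for any of the genes. The median fitted log2 ratio of the 108 genes was -0.15 under TMM and -0.06 when the counts were scaled to the totals of counted reads, beside 0.01 and 0.11 over all genes fitted.

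**Figure D4:**
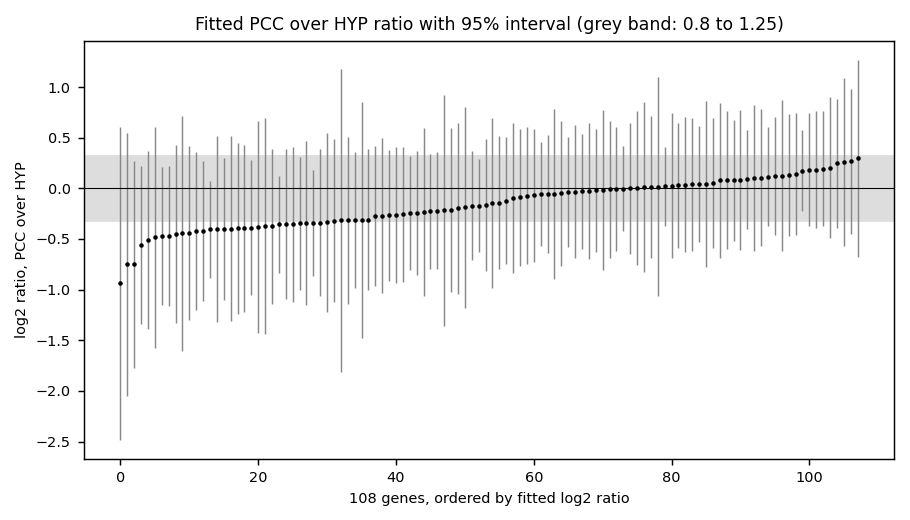
Fitted log2 ratio of PCC over HYP (points) with its 95% interval (lines) for the 108 genes, ordered by the ratio; the grey band runs from a ratio of 0.8 to 1.25. Each interval crosses 0 and none stays inside the band.

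The higher genes shared their order of samples. WT replicate 2 held the highest WT value in 76 and WT replicate 5 the lowest in 80 of the 104 genes, HYP replicate 2 the highest HYP value in 75, and PCC replicate 2 the highest PCC value in 64. The lowest HYP value was in replicate 1 for 41 and in replicate 3 for 40 genes, and the lowest PCC value in replicate 1 for 49 and in replicate 4 for 40. As the median over the genes of the level relative to the HYP mean, WT samples were at 0.0760 to 0.358, HYP samples at 0.759 to 1.37 and PCC samples at 0.678 to 1.40.

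The chromaffin markers followed the same order in WT, where they were highest in replicate 2 and lowest in replicate 5, but not in PCC, where they were 6.39 and 6.58 times the WT mean in replicates 1 and 4, the samples with the lowest values of the chosen genes. The autonomic neuron markers, 2 of which are chosen genes, had their highest value in each group in the sample where most chosen genes had theirs, with 1.59 times the WT mean in WT replicate 2, 0.188 in WT replicate 5, 6.61 in HYP replicate 2, 12.03 in PCC replicate 2, and 3.47 and 4.06 in PCC replicates 1 and 4. Their part in the levels of the chosen genes was not tested. As group means the chromaffin level was 2.52 times the WT mean in HYP and 5.59 times in PCC, over markers that the authors had called. The 12 proliferation markers (of 15) were at 3.50 and 10.2 times as the median. Their summed level of 56.2 to 115 FPKM in WT nevertheless overlapped with 73.4 to 100.01 FPKM in HYP. *Pcna* made up most of this sum in both and had means of 90.3, 57.3 and 55.6 FPKM in WT, HYP and PCC. Divided by the chromaffin level of each sample, a step chosen after seeing the data, the 104 genes had a median HYP to WT fold of 1.37, with 0.504 as the lowest. It was above 1 in 86 genes, at least 3 in 16, and the samples stayed separated in 26. The division raised WT replicate 5 most, since its chromaffin level was 0.178 times the WT mean, against 0.829 to 1.58 in the other WT samples. This bears on the WT means and on the separation, and the divided folds were not computed without that sample. The PCC to WT fold after the division had a median of 0.657, above 1 in 23 of the 104 genes and at least 3 in 8, so that most of them were then lower in PCC than in WT. The PCC to HYP ratio after this division was 0.384 to 0.614 and thus below 1 in each gene. The rule held the undivided ratio near 1, while the chromaffin level rose from 2.52 times the WT mean in HYP to 5.59 times in PCC. A divided PCC to HYP ratio below 1 therefore follows from the choice of the genes and is not a finding. Because the rule also tied the PCC to WT fold to that of HYP, the lower divided fold in PCC follows as well. Nothing is read from it.

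**Figure D5:**
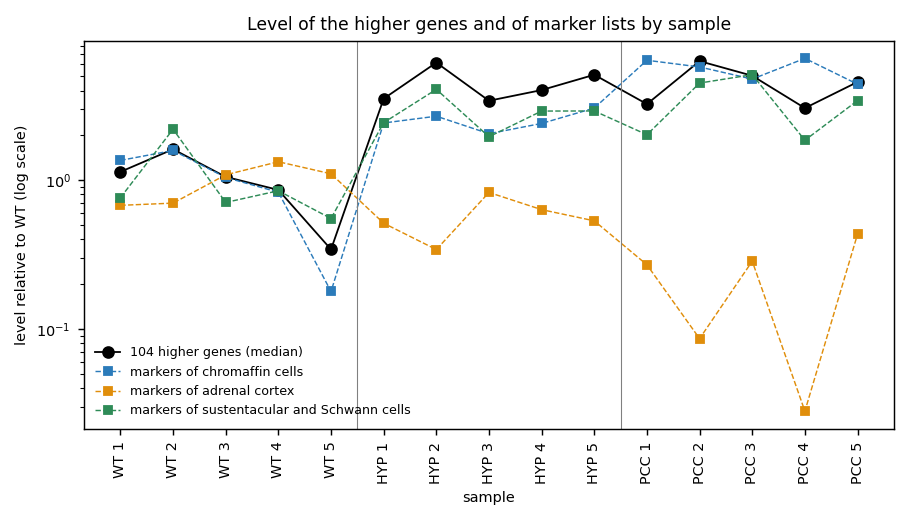
Median level of the 104 higher genes and of 3 marker lists in each sample, relative to WT, on a log scale. The higher genes lie at 0.342 to 1.61 in WT, 3.42 to 6.17 in HYP and 3.05 to 6.31 in PCC, whereas the chromaffin markers lie at 2.05 to 3.05 in HYP and 4.41 to 6.58 in PCC.

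Beyond its restriction to autosomes, the rule did not use where genes lie or how far they span, although FPKM and with it the minimum level are scaled to gene length. The chosen genes spanned a median of 47.0 kb, beside 22.0 kb for the listed genes, and 35 of them (32.4%) were longer than 100 kb, beside 14.9%. *Ptprt*, *Dpp6*, *Tenm4* and *Ank3* are such long genes. Chromosome 8 held 14 of the 108 genes (12.96%, beside 5.89% of the listed genes) and chromosome 13 held 8 (7.41%, beside 3.22%), while chromosome 1 held 12 (11.1%, beside 12.7%). These shares are descriptions and were not tested.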

How the data were processed

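Sequencing in read pairs, alignment to Rn06 and the DESeq2 comparison were done by the authors' provider. HISAT2 2.0.5 and featureCounts 1.5.0-p3 are in the submitters' processing notes. The deposited tables hold, for the genes called in each pair of groups, raw counts, FPKM and the counts divided by a size factor per sample, a normalized signal that the authors made. The deposited tables also hold the authors' log2 fold changes, which were not used, and p-values, from which only the count of genes that entered each of their tests was recovered. The strand setting and the treatment of reads with several matches are not given in the sources used here, so reads of overlapping genes cannot be told apart. Groups came from the sample labels.

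FPKM were averaged by group. The members and lists were chosen with earlier results of these data known. Counts were fitted with edgeR 4.0.16 (TMM, filterByExpr, quasi-likelihood test, Benjamini-Hochberg adjustment over that recovered count, 18057 genes for HYP and 18790 for PCC against WT) and limma 3.58.1 (voom) in R 4.3.3, with DESeq2 1.42.0 as an alternative. The fits were tested on simulated data in which most genes were unchanged, whereas the genes fitted here were all called by the authors. That test therefore does not cover TMM scaling over called genes. Python 3.11.15, numpy 2.4.6, pandas 2.3.3 and matplotlib 3.10.9 served for the rest. Added to FPKM were 0.1 in the heat map and in 1 alternative. The number of samples limits the precision.

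Named were, per direction, the 12 largest HYP to WT ratios among genes with a symbol and at least 5 FPKM in a group, up to 4 genes per class with the highest level, the 3 nearest to each limit on either side, members of the marker lists and members the paper names, 53 in all. *Kcnb2*, *Kcnq3*, *Cacnb4*, *Scn3a*, *Dpp6*, *Chrm4*, *Tbx20*, *Lhx4*, *St18*, *Gldn*, *Cmtm5*, *Krt25*, *Fam69c*, *Tmem169* and LOC100911572 were named after their values were seen, as were the groups by role. The 7 members with a locus name were otherwise only counted, and some members are not reported here by name. Alternatives were group medians, other scalings, limits, filters and tools, a replicate block and leaving out each sample.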

Additional observations from a re-analysis of the deposited data

Results flagged for a closer look

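In 15 of 159 groups of 5 samples, over 14 of the named genes, 1 sample stood apart by Dixon's criterion at the 95% level. Chance meets this criterion in about 1 of 20 groups of independent, normally distributed values. The FPKM were not transformed and the genes shared their order of samples, so that rate is no reference here. HYP replicate 2 and PCC replicate 2 stood apart 4 times each, WT replicate 2 stood apart 3 times and WT replicate 5 did so 2 times. In HYP replicate 2, *B3gat1* had 64.0 FPKM (nearest other sample 19.4), *Plekhg3* 28.9 (15.1), *Sox10* 5.58 (3.54) and *Ttyh1* 5.78 FPKM (3.30). In PCC replicate 2, *Krt26* had 6.24 FPKM (1.47), *MAST1* 15.5 (4.27), *Susd4* 7.22 (3.39) and *Tox* 25.2 FPKM (10.1). In WT replicate 2, *Col3a1* had 6.45 FPKM (3.59), *Ly6g6e* 2.76 (0.686) and *Sox10* 1.82 FPKM (0.671). In WT replicate 5, *Ank3* had 2.19 FPKM (nearest other sample 7.00, so this was a low value) and *Rbp4* 2.69 FPKM (1.31). *Phlda1* had 64.3 FPKM in PCC replicate 5 (19.2), and *Zfp39* was low with 1.30 FPKM in HYP replicate 1 (1.73).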

How the results depend on the processing

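The number of genes depended on the limits of the rule. A 2-fold limit gave 226 genes (208 higher, 18 lower) and a 4-fold limit 59 (58 and 1), and a window of 0.67 to 1.5 gave 184 (178 higher) and a narrower one from 0.9 to about its reciprocal gave 49 (47 and 2). With at least 5 FPKM 69 genes were left (66 higher), without a minimum 8 were lower, and with each PCC sample also outside the WT range 2 were lower. TMM scaling gave 96 genes (86 higher, 10 lower), of which 75 were among the 108, and the authors' size factors 76 (65 and 11), of which 62 were. Group medians gave 105 genes, 64 of them shared. Further alternatives were chosen after seeing the data. Division by the chromaffin level gave 14 higher and 77 lower genes, 0 of them among the 108. That 0 largely follows from the rule. The rule held the undivided PCC to HYP ratio near 1, while the chromaffin level rose from HYP to PCC. Without WT replicates 2 and 5 there were 106 higher and 26 lower genes. Leaving out 1 sample gave 81 to 144 genes, 76 to 136 higher and 2 to 30 lower. The lower genes were 30 without WT replicate 5, 8 without HYP replicate 1, and 2 without WT replicate 2, HYP replicate 5 or PCC replicate 5. The causes were not tested. For the 53 named genes, the log2 ratios to WT were recomputed with group medians, TMM scaling, 0.1 FPKM added and each sample left out, but not with the chromaffin division, under which 86 of the 104 HYP to WT folds and 23 of the PCC to WT folds were above 1. Of these 1908 values 0 changed sign. For HYP to WT, the separated samples fixed the sign in advance under medians, 0.1 FPKM added and left-out samples. The limits on the means also kept the PCC mean away from WT, so the unchanged signs are no test. Only 2 values, both of *Smoc2* with 0.1 FPKM added, moved by more than 1 SD between replicates, taking the larger SD of the 2 groups. By over 1.5-fold, 24 values of 10 genes moved. Besides the genes given with their values above, without WT replicate 2 the log2 ratios of *Ly6g6e* went from 2.79 to 3.87 in HYP and from 2.50 to 3.58 in PCC, and without PCC replicate 2 that of *MAST1* in PCC from 3.44 to 2.63. With 0.1 FPKM added, *Ptprt* went from 5.25 to 4.15 in HYP and from 5.19 to 4.09 in PCC. Without PCC replicate 2, 8 of the 108 intervals of the PCC to HYP ratio lay below 1.

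The replicate numbers did not pair the samples: correlations of same-numbered samples ran from -0.20 to 0.22, and 2, 1 and 1 of 5 samples matched their own number best. With the number as a replicate block, edgeR called 106 of 107 chosen genes in HYP and 95 of 106 in PCC against WT.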
